A study of Mus musculus with 2 samples.

Results

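The genes described here encode the regulatory partners of the sodium-potassium pump: the beta subunits Atp1b1, Atp1b2 and Atp1b3 and the FXYD proteins Fxyd1, Fxyd6 and Fxyd7. They are 6 of the 43346 Ensembl genes in the deposited tables and were taken by gene symbol. All 6 symbols matched a row. RNA came from 2 pools of 30 Purkinje cells each, the large inhibitory output neurons of the cerebellar cortex, collected by laser capture from adult male B6CASTF1/J tissue at 14 months of age, a cross of C57BL/6 with a Castaneus strain. The pools form a single group, for which the labels name no treatment and no engineered allele. Spike-in RNA was added to both. The pools are numbered as biological replicates in the labels yet carry the same donor identifier, and the labels do not say whether they came from 1 animal. A standard deviation (SD) here is therefore the spread of 2 libraries and may be of technical origin. Summed expected counts came to 31503819 for pool 1 and to 28709397 for pool 2.

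The pump moves sodium out of the cell and potassium in at the cost of ATP, and in neurons it restores the gradients that action potentials and synaptic currents run down. A catalytic alpha subunit carries the ions. The glycosylated beta subunit is needed to fold the pump and bring it to the cell surface, and a small single-span FXYD protein tunes its affinity for ions. As textbook background, beta1 is the main form of neurons and beta2 is prominent in astrocytes, where it was also named the adhesion molecule on glia.

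The FXYD proteins take their name from a short motif just outside the membrane span, and the codons of that motif are shown because they are what the 3 FXYD members share. Each line runs 5′ to 3′ on the coding strand of the GENCODE M21 reference (build mm10), with the 4 codons of the motif in capitals.
Fxyd1: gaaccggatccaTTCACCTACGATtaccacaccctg
Fxyd6: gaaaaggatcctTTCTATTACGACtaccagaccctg
Fxyd7: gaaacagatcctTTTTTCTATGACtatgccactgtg
In each of the 3 genes the motif occurred once in frame and was split over an intron, between exons 3 and 4 in Fxyd1 (chromosome 7, 31053473 to 31053902, minus strand), exons 3 and 4 in Fxyd6 (chromosome 9, 45390663 to 45390778, plus strand) and exons 2 and 3 in Fxyd7 (chromosome 7, 31045026 to 31047382, minus strand). Over aligned coding bases, Fxyd1 and Fxyd6 were 65.1% identical, Fxyd6 and Fxyd7 62.8% and Fxyd1 and Fxyd7 61.6%. The beta subunits were as far apart, with 64.0% for Atp1b1 and Atp1b2, 60.8% for Atp1b1 and Atp1b3 and 60.5% for Atp1b2 and Atp1b3.

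All 6 members were detected in both pools (TPM of 1 or more), beside 30.3% of the 21474 protein-coding genes, and nothing is read from the difference because the members were picked by name. TPM is a read share corrected for transcript length, so levels of different genes can be set side by side. The members spanned a wide range, from Atp1b1 near the top of the library to Fxyd6 close to the detection threshold.

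Among the beta subunits, Atp1b1 was by far the highest. Atp1b1 (ENSMUSG00000026576.8, chromosome 1, 164437109 to 164458355) encodes beta1 and stood at 858 TPM in pool 1 and 675 TPM in pool 2, from 86502 and 58551 expected counts. Its mean of 767 ± 129.9 (SD, n = 2) ranked 125th among protein-coding genes. The gene's annotated span shares 617 bases with Nme7 on the opposite strand, and the sources used here do not say whether the counting used strand. Reads from the 2 genes may therefore not be told apart there. Nme7 itself stood at 74.8 TPM in pool 1 and 109.8 TPM in pool 2. In expected counts it had 1824 in pool 1 and 2280 in pool 2, against 86502 and 58551 for Atp1b1.

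Atp1b2 (ENSMUSG00000041329.9, chromosome 11, 69599736 to 69605942) encodes beta2 and stood at 40.3 TPM in pool 1 and 98.6 TPM in pool 2, from 4534 and 9594 expected counts. Pool 2 was thus 2.45 times pool 1, the widest gap of any member, around a mean of 69.5 ± 41.2 (SD, n = 2). Atp1b3 (ENSMUSG00000032412.8, chromosome 9, 96332655 to 96364442), which encodes the more widely expressed beta3, stood at 10.1 TPM in pool 1 and 6.13 TPM in pool 2, from 780 and 406 expected counts, with a mean of 8.13 ± 2.83 (SD, n = 2). The order Atp1b1, Atp1b2, Atp1b3 held in both pools, and each gap between the means of neighbours was larger than the sum of their SDs.

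Of the summed beta TPM, Atp1b1 held 94.5% in pool 1 and 86.6% in pool 2. The share of Atp1b2 was 4.44% in pool 1 and 12.7% in pool 2. For Atp1b3 it was 1.11% and 0.786%. Atp1b1 exceeded Atp1b2 by 21.3 times in pool 1 and by 6.84 times in pool 2, so the pools shared the order but not the size of this gap. Atp1b4, a related protein that has lost the pump role in mammals, had 0 counts in both pools, which allows up to 0.0954 CPM (counts scaled to the library total) in pool 1 and 0.105 in pool 2 (3 counts, counting error only).

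**Figure D1:**
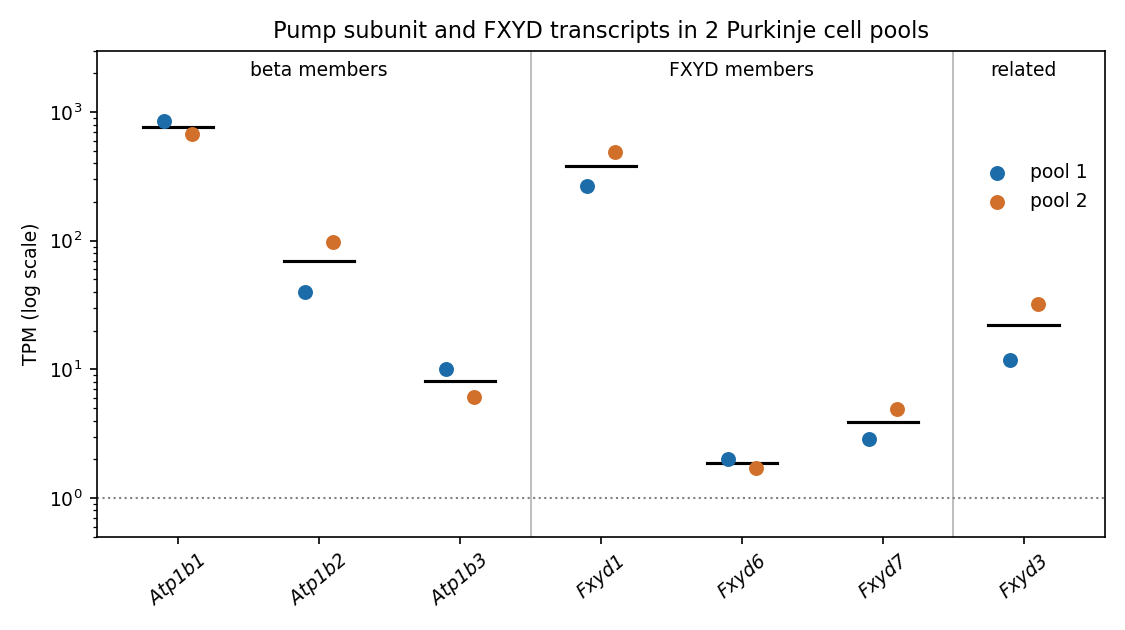
TPM on a log axis for the 6 members and the related Fxyd3 in pool 1 (blue) and pool 2 (orange), with bars at the mean of the 2 pools and a dotted line at the detection threshold of 1. Atp1b1 lies at 858 and 675, and Fxyd6 at 2.02 and 1.72.

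Fxyd1 dominated the FXYD genes. Fxyd1 (ENSMUSG00000036570.10, chromosome 7, 31051678 to 31057199), or phospholemman, a kinase-regulated inhibitor of the pump, stood at 268 TPM in pool 1 and 492 TPM in pool 2, from 4845 and 7630 expected counts. Its mean was 380.3 ± 158 (SD, n = 2), rank 214 among protein-coding genes, with pool 2 above pool 1 by 1.83 times. Its transcripts are short, with an effective length of 444 bases in pool 1 and 443 in pool 2, so fewer reads stand behind its TPM than behind the same TPM of a longer gene.

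Fxyd7 and Fxyd6 were low in both pools. Fxyd7 (ENSMUSG00000036578.6, chromosome 7, 31042513 to 31051467), known as a brain-specific FXYD protein, stood at 2.90 TPM in pool 1 and 4.89 TPM in pool 2, from 69 and 100 expected counts. In CPM that is 2.19 (exact binomial 95% interval 1.71 to 2.78) and 3.498 (2.85 to 4.25). CPM is scaled to the library total, and with counts scaled to the spike-in RNA the log2 ratio of pool 2 over pool 1 was -0.29. The intervals cover counting error only, as the labels mention no molecular identifiers.

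Fxyd6 (ENSMUSG00000066705.6, chromosome 9, 45370185 to 45396159), or phosphohippolin, a FXYD protein of the nervous system, stood at 2.02 TPM in pool 1 and 1.72 TPM in pool 2, from 139 and 102 expected counts. It had 4.42 CPM in pool 1 (exact binomial 95% interval 3.72 to 5.22) and 3.57 in pool 2 (2.91 to 4.33), and these intervals overlapped. Fxyd7 was above Fxyd6 in TPM in both pools, and the gap of their means was larger than the sum of their SDs, whereas in counts Fxyd6 was the higher of the pair in pool 1 (139 against 69) and the 2 genes were nearly level in pool 2 (102 against 100). The effective length is 585 bases for Fxyd7 and 1692 for Fxyd6.

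Within the summed TPM of all 7 FXYD genes, Fxyd1 held 93.6% in pool 1 and 92.4% in pool 2. Fxyd7 held 1.01% and 0.918%, and Fxyd6 held 0.704% and 0.323%. A gene that makes up nearly all of a sum can hardly move in share, so these values do not speak to the level of Fxyd1. Of the 4 FXYD genes that are not members, Fxyd3 stood at 11.9 TPM in pool 1 and 32.4 TPM in pool 2, Fxyd5, or dysadherin, had 0.780 and 1.15, and Fxyd2, the kidney gamma subunit, had 0.740 and 0. Nearly all Fxyd3 reads lay on a transcript with a retained intron, and the gene overlaps Lgi4 on the opposite strand. With its protein-coding transcripts alone, Fxyd3 held 0.0543% of the FXYD sum and Fxyd1 held 98.0%. Fxyd4, a kidney and colon form, had 0 counts in both pools. In all, 4 of the 7 FXYD genes were detected in both pools, namely Fxyd1, Fxyd3, Fxyd7 and Fxyd6 in order of mean TPM, and the means of neighbours in that order were apart by more than the sum of their SDs. Fxyd6 was likewise apart from Fxyd5, which comes next, whereas Fxyd5 and Fxyd2 were not apart from each other by this rule.

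**Figure D2:**
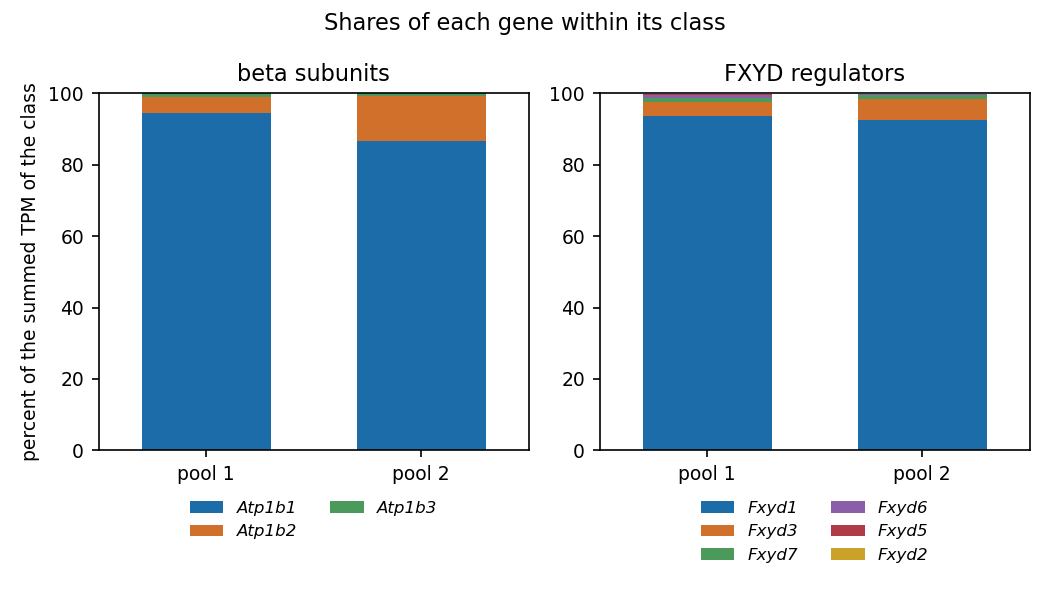
Stacked bars of each gene's percent of the summed TPM of the beta genes (left) and the FXYD genes (right) in pools 1 and 2. Atp1b1 holds 94.5% and 86.6% of the beta sum, and Fxyd1 holds 93.6% and 92.4% of the FXYD sum.

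Fxyd1 and Atp1b2 can be set side by side per length, and Fxyd1 was 6.66 times Atp1b2 in pool 1 and 4.99 times in pool 2. In expected counts the genes were nearly level in pool 1 (4845 against 4534), and Atp1b2 was higher in pool 2 (9594 against 7630). The effective length in pool 1 is 444 bases for Fxyd1 and 2769 for Atp1b2. Coverage along transcripts, which cDNA made from little RNA can lower in long ones, was not tested.

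In TPM, 3 members were higher in pool 2 and 3 in pool 1, a division that the spike-in scaling alters for Fxyd1 and Fxyd7. Taken as log2 of (TPM + 1) in pool 2 over pool 1, the ratio was 1.27 for Atp1b2, 0.87 for Fxyd1 and 0.59 for Fxyd7, and it was -0.15 for Fxyd6, -0.35 for Atp1b1 and -0.64 for Atp1b3. Over the 8958 genes detected in at least 1 pool the median ratio was 0.24, and 68.5% of them were higher in pool 2. With 1 library on each side these ratios have no replicate check, and no test was made.

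Atp1b2 was the only member past 2-fold, in a background where 8.22% of genes were more than 2-fold higher in pool 2 and 2.08% in pool 1. Set against the median of all detected genes, the ratios of the 6 members were 1.03 for Atp1b2, 0.63 for Fxyd1, 0.36 for Fxyd7, -0.39 for Fxyd6, -0.59 for Atp1b1 and -0.88 for Atp1b3. When counts were scaled to the spike-in RNA, of which pool 2 held 0.411% of counts and pool 1 0.211%, the median of all genes moved to -0.73, and 4.10% of genes were past 2-fold higher in pool 2 against 33.4% in pool 1. With TMM scaling, which sets the median to 0.03, these shares were 11.6% and 7.96%, and no member changed sign. Under spike-in scaling the ratio stayed above 0 for Atp1b2 (0.25) and turned negative for Fxyd1 (-0.17) and Fxyd7 (-0.29), while Fxyd6, Atp1b1 and Atp1b3 stayed below 0.

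**Figure D3:**
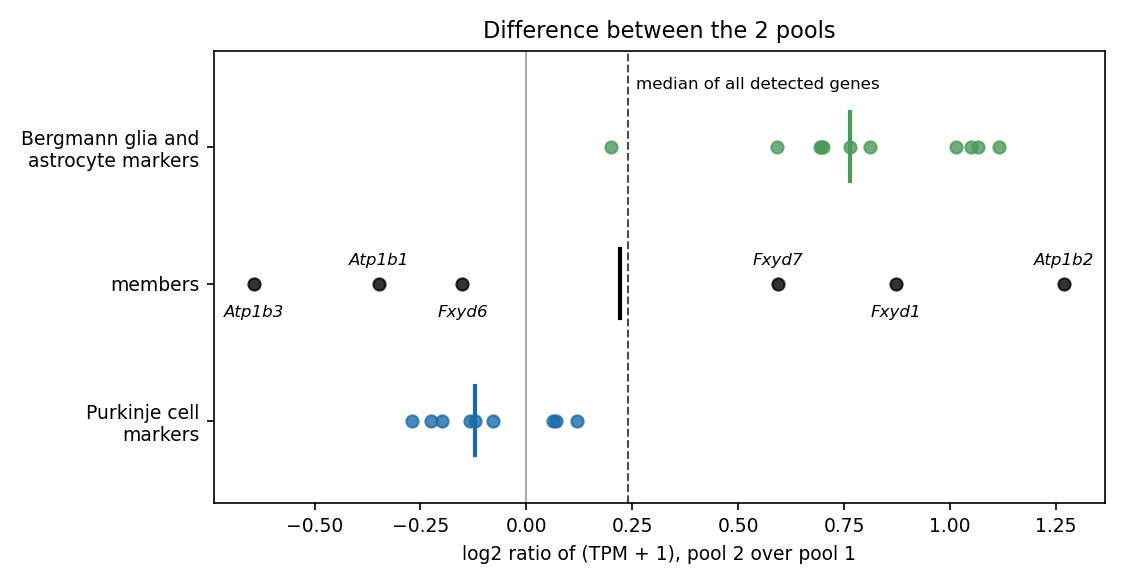
Log2 ratio of TPM + 1, pool 2 over pool 1, for Purkinje cell markers (blue), the 6 members (black) and Bergmann glia and astrocyte markers (green), each point a gene at a TPM of at least 1 in a pool, with upright bars at each list's median and a dashed line at the median of all detected genes (0.24). Atp1b2, Fxyd1 and Fxyd7 lie to the right of the dashed line, and Fxyd6, Atp1b1 and Atp1b3 to its left.

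Bergmann glia, the astrocytes whose processes wrap Purkinje cells, had 11 of 12 listed markers detected in both pools, with a list sum of 3070 TPM in pool 1 and 5229 TPM in pool 2. No marker of the list was at 0, and the marker under the threshold was Gfap, the astrocyte filament protein, at a mean of 0.485 ± 0.0212 TPM (SD, n = 2). All 11 detected glial markers were higher in pool 2 in TPM, by 0.76 at the median on the log2 scale and by 0.20 to 1.12 in range, but 10 were under TMM and 4 under spike-in scaling. Their highest were Slc1a3, a glutamate transporter, at 1309.5 TPM in pool 1 and 2298 TPM in pool 2, Sparcl1 with 548 and 825, Gja1, a gap junction protein, with 401 and 842, and Apoe, a lipid carrier, with 353 and 572.

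Purkinje cell markers were detected in full, 9 of 9 in both pools, with a median log2 ratio of -0.12 and a range from -0.27 to 0.12 in TPM, where 3 were higher in pool 2, and with none higher there under TMM or spike-in scaling. Which list differed more between the pools turned on the scaling, since the medians under spike-in scaling were -1.17 for Purkinje markers and -0.23 for glial markers. Gng13, Pcp4, Pcp2 and Pvalb led them, with mean TPM of 38512, 25537, 16995 and 8017. As a percent of the summed Purkinje marker TPM, Atp1b1 was 0.901% in pool 1 and 0.714% in pool 2. As a percent of the summed glial marker TPM, Fxyd1 was 8.74% in pool 1 and 9.41% in pool 2 and Atp1b2 was 1.31% in pool 1 and 1.89% in pool 2. Set against the glial sum, the ratio of pool 2 to pool 1 was 1.44 for Atp1b2, 1.08 for Fxyd1, 0.990 for Fxyd7, 0.4998 for Fxyd6, 0.461 for Atp1b1 and 0.355 for Atp1b3. Set against the Purkinje sum, it was 2.47 for Atp1b2, 1.85 for Fxyd1, 1.70 for Fxyd7, 0.858 for Fxyd6, 0.792 for Atp1b1 and 0.610 for Atp1b3. The Purkinje sum was nearly the same in both pools (95259 TPM in pool 1 and 94518 in pool 2). Ratios against it therefore nearly repeat the plain TPM ratios. Fxyd7 rests on 69 and 100 counts and Fxyd6 on 139 and 102. No member is assigned to a cell type from these ratios. How far glial RNA accounts for the level of any member was not tested. In pooled cells, more cells of a type and more RNA per cell cannot be told apart.

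Each list of another cell type summed to less TPM than the glial and the Purkinje lists in the same pool. The lists hold from 5 to 12 genes, so these sums do not rank the cell types. Fxyd1 and Atp1b1 are also known from the choroid plexus, the epithelium that makes cerebrospinal fluid. Its list had 1 of 5 markers detected in both pools (Clic6). Its defining transthyretin gene, Ttr, had 0 counts in pool 1 and 12 in pool 2. Whether choroid plexus RNA accounts for any of the level of Fxyd1 or Atp1b1 was not tested. The granule cell list, neurons that lie next to Purkinje cells, had 5 of 7 detected with a summed TPM of 33.4 in pool 1 and 44.6 in pool 2, led by Zic1 and Neurod1. Inhibitory interneurons had 2 of 6, led by Prkcd and Kit, oligodendrocytes 3 of 6, led by Cnp and Mbp, endothelial and mural cells 3 of 6, led by Ly6c1 and Vtn, and microglia 1 of 5, led by Tyrobp and P2ry12. Red blood cell genes had a summed TPM of 2453 in pool 1 and 16.3 in pool 2, led by Hbb-bs and Hba-a1.

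Nearness of level was taken as the smallest maximum difference in log2(TPM + 1) over the 2 pools, among 98 other listed genes. Atp1b1 lay nearest to Ppp1r17, a phosphatase inhibitor of Purkinje cells, at 762 and 701 TPM (difference 0.17). Fxyd1 lay nearest to Apoe (0.40). Among the low members, Fxyd7 lay nearest to the glial folate enzyme gene Aldh1l1 (0.13) and Fxyd6 to Kit, a receptor gene of interneurons (0.16). With 2 pools this is a description of level only.

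Each member had most or all of its counts on 1 annotated transcript. Atp1b1, Atp1b3, Fxyd6 and Fxyd7 had all their counts on 1 transcript, out of 4, 3, 1 and 1 in the authors' annotation. Fxyd1-203 held 93.4% of the TPM of Fxyd1 in pool 1 and 95.2% in pool 2, followed by a second coding transcript with 5.46% and 3.86%. Atp1b2-201, the coding form, held 97.1% of Atp1b2 in pool 1 and 95.8% in pool 2, and the remainder lay on a non-coding transcript. The main transcript was thus the same in both pools for every member. For Fxyd6 and Fxyd7, with 1 annotated transcript each, this was fixed by the annotation.

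Neighbouring FXYD genes differed widely in level. Fxyd3, Fxyd1, Fxyd7 and Fxyd5 lie in this order on the minus strand of chromosome 7 within 43.98 kb (31032722 to 31076704 on mm10), and Fxyd7 begins 210 bases beyond the end of Fxyd1. Across that short interval Fxyd1 was 92.6 times Fxyd7 in pool 1 and 100.7 times in pool 2. Fxyd5 lies 31 bases beyond the end of Fxyd7 and was lower still, with a mean TPM of 0.965. The annotated start of the Fxyd1 gene lies upstream of that of its main transcript, Fxyd1-203 (31054807). On chromosome 9, Fxyd6 and Fxyd2 are 3509 bases apart on the plus strand.

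**Figure D4:**
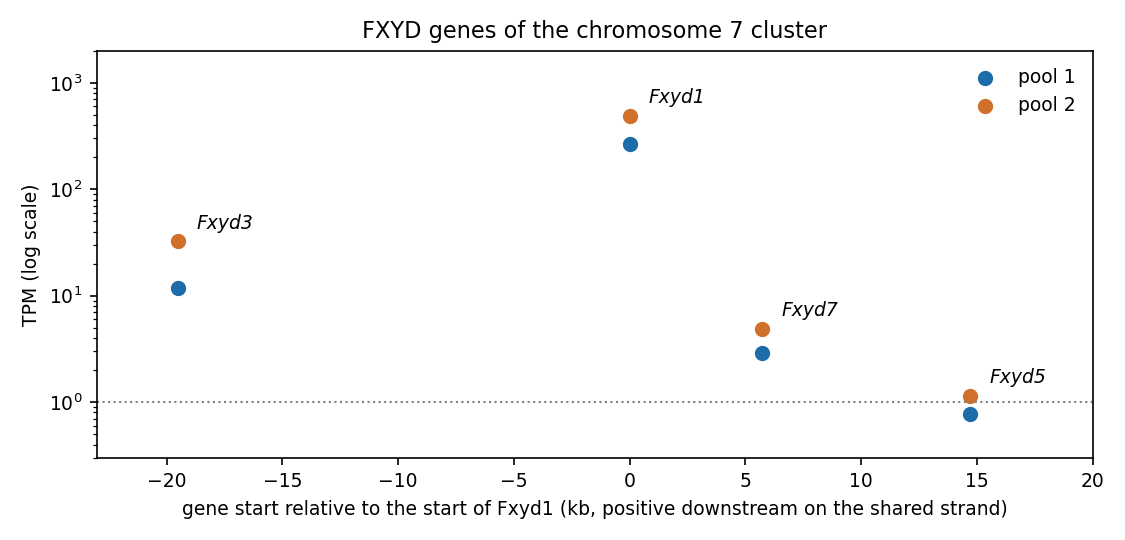
TPM on a log axis of the 4 FXYD genes on chromosome 7 in pool 1 (blue) and pool 2 (orange), against the distance of each gene's start from that of Fxyd1 in kb along the shared strand, with a dotted line at the detection threshold of 1. Fxyd1 stands at 268 and 492, and Fxyd7, whose start lies 5.73 kb downstream, at 2.90 and 4.89.

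The promoters of the highest beta and the highest FXYD member are shown because these 2 genes led their classes and their pool ratios in TPM had opposite signs. Each runs 5′ to 3′ on the gene's strand over 300 bases that end 50 bases past the RefSeq start, on GRCm38.p6, with matches to the motifs searched in capitals. Each motif was searched on both strands. The GC box was taken as GGGCGG and the CCAAT box by its own letters. For the TATA box the letters were TATAAA. For the E-box they were CACGTG. The cyclic AMP response element was searched as TGACGTCA.
Atp1b1, chr1:164458306-164458605, minus strand: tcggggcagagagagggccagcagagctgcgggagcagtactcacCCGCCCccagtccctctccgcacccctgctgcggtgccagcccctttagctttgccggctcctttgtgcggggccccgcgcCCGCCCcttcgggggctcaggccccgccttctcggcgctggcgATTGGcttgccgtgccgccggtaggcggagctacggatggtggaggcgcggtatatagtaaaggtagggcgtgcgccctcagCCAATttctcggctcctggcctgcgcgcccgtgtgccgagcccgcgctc
Fxyd1, chr7:31054804-31055103, minus strand: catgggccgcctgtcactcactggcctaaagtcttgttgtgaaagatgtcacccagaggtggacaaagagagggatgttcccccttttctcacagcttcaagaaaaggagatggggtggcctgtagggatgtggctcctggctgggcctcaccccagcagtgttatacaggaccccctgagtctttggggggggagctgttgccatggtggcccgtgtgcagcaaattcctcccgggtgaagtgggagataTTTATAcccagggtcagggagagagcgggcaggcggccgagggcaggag
The Atp1b1 window held 31 CpG pairs, more than 89.4% of all 32851 promoters in the table, with a GC content of 71.0%. It had 2 GC boxes, found in 35.7% of all promoters, and 2 CCAAT motifs, found in 37.4%. The Fxyd1 window held 6 CpG pairs, more than 43.6% of promoters, and 1 TATAAA match, found in 13.6% and here on the opposite strand. The main transcripts Atp1b1-201 and Fxyd1-203 both start inside these windows in GENCODE M21, 250 and 296 bases from the 5′ end. The start of Fxyd1-203 is thus close to the window's far end, and the minor transcript Fxyd1-201 starts outside it. Atp1b3 had 2 entries, with 39 and 34 CpG pairs, and Fxyd6 had 1, with 12. Atp1b2 and Fxyd7 had no entry. The motif matches are a description of these letters and not of factor binding.

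Other listed genes around the pump were detected to differing extents. Of the 4 Nkain genes, which encode membrane proteins that interact with the pump's beta subunit, only Nkain4 was detected, at 23.9 TPM in pool 1 and 65.8 TPM in pool 2, while Nkain1, Nkain2 and Nkain3 had at most 23 counts in a pool. The proton-potassium pumps Atp4a, Atp4b and Atp12a had 0 counts in both pools. Of 16 carriers and channels that work on the sodium and potassium gradients, 10 were detected in both pools, and 7 of these were higher in pool 2 in TPM, 6 under TMM and 2 under spike-in scaling. In TPM that is close to the 68.5% of all detected genes that were higher in pool 2. The highest were Slc12a5, the neuronal potassium-chloride carrier, with a TPM of 158 and 156, Slc4a4, a sodium-bicarbonate carrier, with 24.4 and 44.0, Slc4a10, a related neuronal carrier, with 27.99 and 22.5, and Slc24a2, a sodium-calcium-potassium exchanger, with 16.5 and 15.04. Kcnj10, the glial potassium channel Kir4.1, was the only one past 2-fold on the scale of TPM + 1, with 4.33 TPM in pool 1 and 15.3 TPM in pool 2. Slc24a3, another sodium-calcium-potassium exchanger, lay just inside that limit, with 1.26 TPM in pool 1 and 3.51 TPM in pool 2. Its log2 ratio was 0.997 with a pseudocount of 1, 1.41 with a pseudocount of 0.1 and 1.20 under TMM scaling.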

How the data were processed

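RNA of 2 laser-captured pools of Purkinje cells was analysed as 1 group with 2 replicates. The labels' protocols name the SMARTer Ultra Low kit for cDNA. Each library was quantified separately against mm10 with GENCODE annotation M4, per the text deposited with each sample. Neither aligner nor quantifier was given in the sources used here. The deposited tables hold, by their column names, expected counts (estimated reads, which need not be whole), TPM, FPKM and, for transcripts, the percent of a gene's TPM. Deposited posterior mean TPM was used as an alternative.

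Symbols and coordinates came from GENCODE M21, a later release on the same build, which matched 42462 of 43346 Ensembl identifiers. Rows with numeric identifiers name no gene, held at most 0.000412% of counts and were left out. Bias towards the reference allele in this cross was not tested. Levels are TPM, with mean and SD over the pools, and detection means a TPM of at least 1 in both. A pool ratio is log2 of TPM + 1, pool 2 over pool 1, which understates the change of low genes. Alternatives scaled expected counts, rounded to whole numbers for the scaling factors, with TMM (edgeR 4.0.16), DESeq2 1.42.0 size factors, total gene counts and spike-in totals. Genes with at least 10 counts in total set the TMM and DESeq2 factors. The ratio and its 2-fold call were run on simulated counts with counting error only. That leaves out other differences between libraries, so it does not show how often the call errs in these pools.

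Members and gene lists were chosen with earlier results of these data known. Named genes are the members, the beta, FXYD and Nkain lists, the 4 highest carriers and any past 2-fold, and the 2 highest genes of each marker list (4 for Purkinje cells and for Bergmann glia and astrocytes). The listed gene nearest in level is named for 4 members. Some results of the lists are not reported here. Gfap, Slc24a3 and the overlapping genes Nme7, Lgi4 and Gm14341 were named after their values were seen. Protein sequences were not used here, and members were compared over coding bases by global alignment. With 1 group and 2 pools no test was made.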

Additional observations from a re-analysis of the deposited data

How the results depend on the processing

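In FPKM, the means of 2 members moved past their SD, Atp1b1 to 964 and Fxyd6 to 2.36. FPKM differs from TPM by a single factor per library, so this is a change of unit that raised all 6 means. Rescaling TPM over nuclear protein-coding genes alone moved all 6, to 1427.5 for Atp1b1, 126 for Atp1b2, 15.2 for Atp1b3, 695 for Fxyd1, 3.48 for Fxyd6 and 7.13 for Fxyd7, with the order kept by construction. At a TPM of at least 5, 4 of the 6 members, 2 FXYD genes and 6 carriers and channels were detected. In expected counts, the mean share of its class was 87.95% for Fxyd1, 8.48% for Fxyd3, 1.85% for Fxyd6 and 1.20% for Fxyd7. Counting Fxyd3 over its protein-coding transcripts only, chosen after seeing the data, left it 0.0543% of the FXYD sum and Fxyd1 98.0%.

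Under spike-in totals, 3 members were past 2-fold, all higher in pool 1, in place of Atp1b2. With that scaling 33.4% of all detected genes were past 2-fold higher in pool 1 and 4.10% in pool 2, so nothing is read from this count. With no filter on low values 2.13% of genes were past 2-fold in either direction, and with TMM scaling 19.5%, against 10.3%. Median pool ratios under TMM were -0.40 for Purkinje markers and 0.54 for glial markers. The other 39 alternative values for levels, shares, counts of genes and list medians, apart from those without replicate 1 or 2, stayed within the spread between pools or within 1.5 times the count. The fall from 6 to 4 detected members is among them and lies at the limit of 1.5 times. With 2 pools, leaving 1 out gives the other pool's value, which cannot leave their spread and says nothing about stability. It moved the mean of Atp1b2 from 69.5 to 40.3 or 98.6 TPM, its share from 8.54% to 4.44% or 12.7%, and the share of Fxyd6 from 0.514% to 0.323% or 0.704%. TMM, DESeq2 and total-count scaling and a pseudocount of 0.1 turned the sign of 0 members' pool ratios. Depth limits Fxyd6 and Fxyd7, with 69 to 139 counts a pool.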

Other observations

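The reads assigned to Fxyd3, a FXYD gene best known from epithelia, lay almost wholly on a transcript annotated with a retained intron. This transcript held 98.6% of the gene's TPM in pool 1 and 98.3% in pool 2, from 373 and 874 expected counts, while the coding Fxyd3-201 had 1.26 and 4.51 counts. Fxyd3 differed between the pools by a log2 ratio of 1.38 (pool 2 over pool 1, TPM + 1), against 0.76 for the median glial marker. The gene shares 2764 bases of its span with Lgi4 on the opposite strand, which had a TPM of 1.78 and 1.79.

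Nkain4, the only detected Nkain gene, had a log2 ratio of 1.43, above that of each of the 6 members. Relative to the summed glial marker TPM it was 0.778% in pool 1 and 1.26% in pool 2, a difference of 1.62 times, close to the 1.60 times of Fxyd3. Its annotated span shares 236 bases with Gm14341 on the opposite strand, which had 0 counts in both pools.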
